A study of Mus musculus with 8 samples.

Results

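The immediate early genes of the AP-1 and Egr families were examined for H3K27ac, the acetylation of lysine 27 of histone H3 that marks active promoters and enhancers, in Oli-neu, an immortalized mouse line of oligodendrocyte progenitors. The 10 genes were listed by name (Fos, Fosb, Fosl1, Fosl2, Jun, Junb, Jund, Egr1, Egr2 and Atf3), all 10 were found among the 21951 protein-coding genes of GENCODE M21 (GRCm38/mm10), and every deposited peak over the gene body or within 20 kb of it was taken. This gave 24 of the 28924 peaks of the proliferating list and 24 of the 27965 peaks of the differentiating list. Chromatin immunoprecipitation followed by sequencing (ChIP-seq) was performed on 1 library per state, so a difference between the states has no replicate spread to be set against, and the states were compared without a test. The cells are labelled as C57BL/6 and as progenitors of embryonic origin. Proliferating cells were kept in DMEM with N2 supplement, T3 (340 ng/ml), L-thyroxine (400 ng/ml), bFGF (10 ng/ml) and Pdgf-BB (1 ng/ml). Differentiating cells were given medium without growth factors and 1 μM of the erb inhibitor PD174265, for 1 day by the labels and longer by the methods of the study, and are labelled as controls. T3 and L-thyroxine stand in the growth protocol of both libraries, and the labels do not name them as withdrawn. Reads per peak are not among the deposited values, so the depth behind a peak is unknown. By the study's methods the differentiating library had more uniquely mapped reads than the proliferating one, and the part of this difference in the peak lists was not tested. Of the oligodendrocyte lineage markers, Olig1, Olig2, Sox10, Ptprz1 and Gpr17 had a promoter peak in both lists, 5 of 10 in all, against 0 of 4 microglial and 0 of 3 endothelial markers. In 1 list alone, 1 of 3 neuronal markers (Syt1) and 1 of 4 astrocyte markers (Slc1a3) had one. Over all protein-coding genes, 17.6% had a promoter peak in both lists and 66.2% in neither.

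Immediate early genes are transcribed within minutes of a growth factor, depolarization or stress signal, without new protein synthesis. Fos proteins bind DNA as dimers with Jun proteins, through a basic leucine zipper, and the dimer (AP-1) recognizes a short palindromic site. Egr1 and Egr2 are zinc finger factors of GC-rich sites, and Egr2 (Krox20) is known as a regulator of myelination in Schwann cells. Atf3 is a stress-induced leucine zipper protein of the ATF/CREB group. Many of these promoters hold serum response elements, in which serum response factor binds a core called the CArG box and ETS-domain partners bind next to it, so that signals through the ErbB and PDGF receptors and MAP kinases reach these genes within minutes.

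The sequences below are shown because their motifs lie under or beside H3K27ac peaks of these genes, the one of Junb between its peaks and under neither. They were read from GRCm38.p6 on the strand of the gene, 5′ to 3′, upstream of a transcription start site (TSS) of the gene. By GENCODE M21 those of Egr2 lie within longer Egr2 transcripts, between their exons, part of the Atf3 sequence overlaps an exon of the noncoding D730003I15Rik on the opposite strand, and the others are outside annotated genes. Capitals mark the motif that each line names: the CArG box, the ETS core (CCGGAA), the TATA box (TATAAA), the cyclic AMP response element (CRE, TGACGTCA), the Egr site (GCGTGGGCG or GCGGGGGCG) or the AP-1 site (TGACTCA or TGAGTCA), each searched on both strands. The 2 ETS cores at the start of the longer Egr2 sequence overlap on opposite strands.
Fos CArG box, chr12:85473560-85473619, plus strand: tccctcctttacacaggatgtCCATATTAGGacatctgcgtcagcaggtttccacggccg
Fos TATA box, chr12:85473810-85473889, plus strand: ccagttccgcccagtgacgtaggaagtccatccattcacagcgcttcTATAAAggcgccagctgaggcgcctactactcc
Fosb CArG box, chr7:19310279-19310338, minus strand: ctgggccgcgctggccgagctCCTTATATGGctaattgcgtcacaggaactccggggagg
Egr2 CArG box and ETS cores, chr10:67537424-67537533, plus strand: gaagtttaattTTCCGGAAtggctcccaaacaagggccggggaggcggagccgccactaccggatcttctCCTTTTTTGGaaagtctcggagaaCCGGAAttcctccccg
Egr2 CArG box, chr10:67537776-67537835, plus strand: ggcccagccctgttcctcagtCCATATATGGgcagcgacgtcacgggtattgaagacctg
Junb TATA box, chr8:84978719-84978798, minus strand: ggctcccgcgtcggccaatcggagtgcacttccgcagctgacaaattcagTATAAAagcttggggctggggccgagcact
Jund CRE and Egr site, chr8:70698725-70698892, plus strand: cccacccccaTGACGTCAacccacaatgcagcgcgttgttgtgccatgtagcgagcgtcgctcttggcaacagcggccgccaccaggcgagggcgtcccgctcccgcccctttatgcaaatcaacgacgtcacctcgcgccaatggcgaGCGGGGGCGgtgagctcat
Atf3 AP-1 site, chr1:191224413-191224472, minus strand: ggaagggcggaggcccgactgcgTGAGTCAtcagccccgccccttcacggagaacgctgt
Jund AP-1 site, chr8:70691403-70691462, plus strand: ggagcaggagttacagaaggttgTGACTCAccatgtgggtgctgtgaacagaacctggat
Fosl1 AP-1 sites, chr19:5433521-5433590, plus strand: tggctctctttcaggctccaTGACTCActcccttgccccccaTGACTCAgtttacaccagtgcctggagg

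Promoter regions were set from 3000 bp before to 100 bp after the TSS of the gene record. In proliferating Oli-neu cells 5 of the 10 genes were marked there: Fos, Fosl2, Jun, Junb and Egr1. The background was 23.7% of all protein-coding genes. In differentiating cells 7 of 10 were (Fos, Fosb, Fosl2, Jun, Jund, Egr1 and Atf3), against a background of 27.7%. Fos, Fosl2, Jun and Egr1 had a promoter peak in both lists, or 4 of 10 against 17.6% of all genes, and Fosl1 and Egr2 in neither list, against 66.2%. A start site was called CpG-rich with a GC of at least 50% and an observed to expected CpG ratio of at least 0.6 over 500 bp on both sides. By the TSS of the gene record, 8 of the 10 genes had one, as did 44.4% of all, the exceptions being Atf3 and Egr1. The other start sites of these genes were not measured. Among all CpG-rich start sites 42.4% had a promoter peak in proliferating and 50.2% in differentiating cells, and among the 8 CpG-rich genes of this family 4 and 5 did. These shares were 50% and 62.5%, over 8 genes only and with CpG limits chosen after the peaks had been seen. The part of CpG content in the promoter marking of these genes was not tested.

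**Figure D1:**
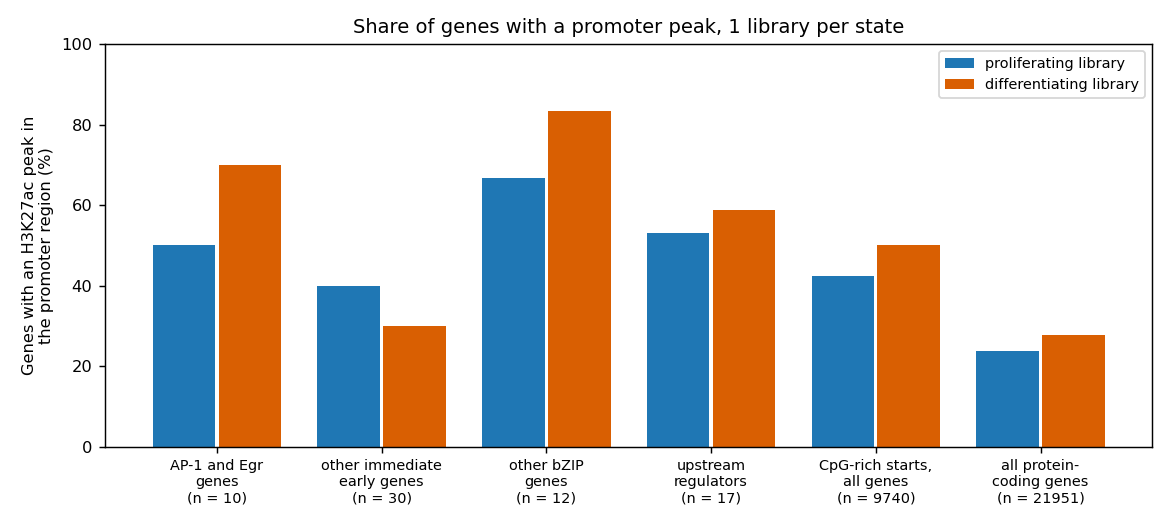
Genes whose promoter region held a peak, in percent of the list, for the proliferating (blue) and the differentiating (orange) library, by gene list, with the number of genes under each pair of bars. There are no error bars because each state has 1 library; the AP-1 and Egr genes stand at 50% and 70%, all genes at 23.7% and 27.7% and genes with CpG-rich start sites at 42.4% and 50.2%.

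When the TSS of every annotated transcript was used, a peak lay over a TSS of 4 of the 10 genes in proliferating cells (Fosl2, Jun, Egr1 and Atf3) and of 8 of 10 in differentiating cells (all but Fosl1 and Junb). Among all protein-coding genes these shares were 22.4% and 27.1%. A peak anywhere over the gene or within 20 kb was present for 9 of 10 genes in each list, and Fosb (proliferating) and Junb (differentiating) had none. For all genes this share was 62.7% in both lists. The genes are short, with a median length of 5938 bp against 17403 bp, and Atf3 (47744 bp) is the longest. Their windows held 47.1 peaks per Mb in either list, against 20.9 and 21.2 over the 16734 protein-coding genes that are no longer than Atf3. Over the genome the lists held 10.6 and 10.3 peaks per Mb. Atf3, Egr2, Fosl1 and Fosl2 lie on denser chromosomes, with 15.1 to 23.0 (proliferating) and 13.8 to 22.9 (differentiating). Fos, Fosb, Jun, Junb, Jund and Egr1 lie on sparser ones, with 4.87 to 8.96 and 4.85 to 8.21. Some of the peaks were nearest to the start of another gene. The part of chromosome density in the 47.1 was not tested.

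**Figure D2:**
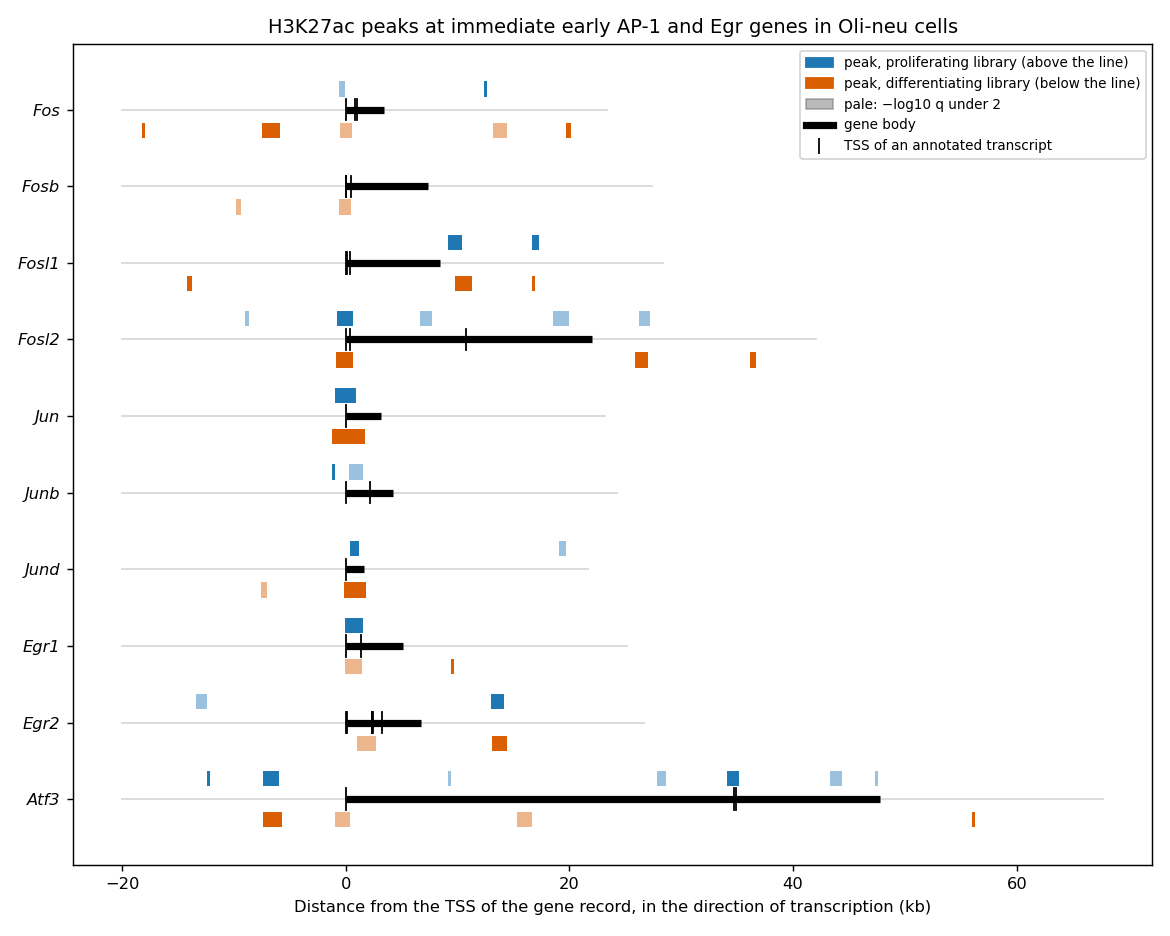
Every H3K27ac peak over the 10 genes or within 20 kb of them, plotted by its distance in kb from the TSS of the gene record, in the direction of transcription. Blue bars above each line are peaks of the proliferating library and orange bars below it those of the differentiating library; pale bars have a −log10 q under 2, the black bar is the gene body and black ticks are transcript start sites. Fosb has no blue bar and Junb no orange bar, and over Atf3 the blue and orange bars at start sites lie at different transcripts.

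Among the Fos family, Fosl2 carried the most significant promoter peak of the 10 genes in both lists. Each peak has the authors' fold enrichment and −log10 q, ranked here as the percentile, the share of the other peaks of its own list with a lower value. Fosl2 (ENSMUSG00000029135.10, chromosome 5, 32135801 to 32157842, plus strand) encodes Fra-2. Its promoter peak reached from −789 to 658 bp in proliferating cells, with −log10 q of 12.3 (percentile 99.4) and a fold enrichment of 3.03. In differentiating cells it reached from −826 to 635 bp, with −log10 q of 6.17 (percentile 96.7) and a fold enrichment of 2.35. Both peaks covered the TSS and touched exon but no coding sequence. By fold enrichment the same peaks ranked low, at percentiles 18.3 and 1.63. The other Fosl2 peaks shared this low fold enrichment: 4 in proliferating cells ranged from 1.91 to 2.36 and 2 in differentiating cells were 2.19 and 2.29. Fold enrichment was low in this stretch of chromosome 5 as a whole, where the 403 and 349 peaks within 5 Mb of the TSS had a median fold enrichment of 2.68 and 2.55, against 3.33 and 3.13 over the lists. The part of the surrounding stretch in the rank of Fosl2 was not tested.

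**Figure D3:**
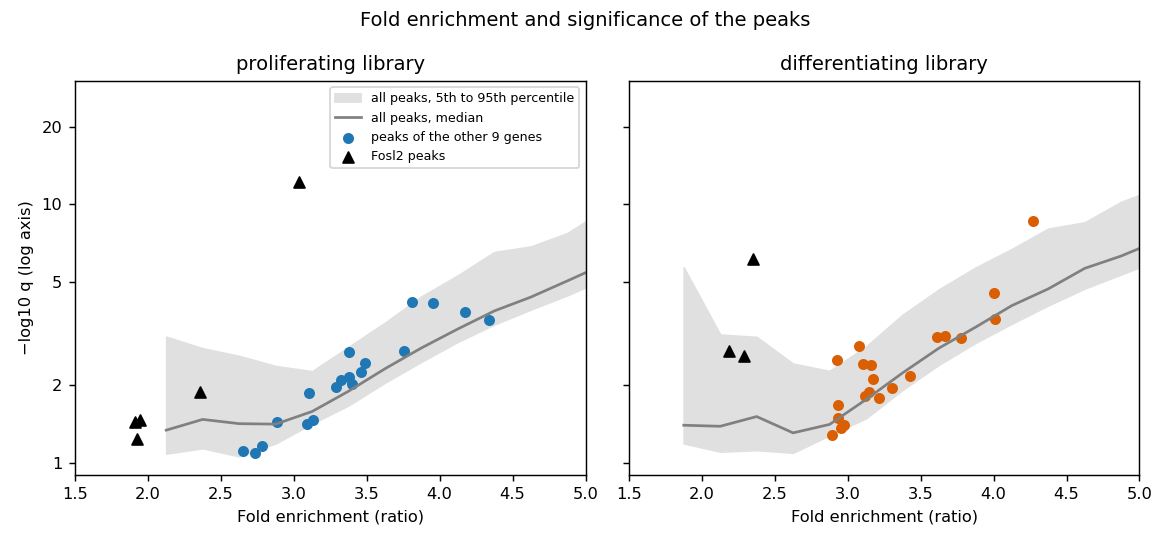
Fold enrichment (a ratio, horizontal axis) against −log10 q (vertical log axis) for the peaks of Fosl2 (black triangles) and of the other 9 genes (coloured points), by library. The grey line is the median and the grey band the 5th to 95th percentile of all peaks in steps of 0.25 in fold enrichment (steps with at least 20 peaks); the Fosl2 promoter peaks, at 3.03 and 2.35, stand above the band.

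Of the Fosl2 peaks outside the promoter, 1 pair overlapped between the lists, beginning 4213 bp (proliferating) and 3844 bp (differentiating) past the end of the gene, and the 2 over the gene body were in the proliferating list alone. By the pair of promoter percentiles, the protein-coding genes nearest to Fosl2 were Galnt1 (99.4 and 96.6), Hspa8 (99.2 and 96.7) and Nat8l (99.2 and 96.9), a likeness over 2 libraries only.

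Fos (ENSMUSG00000021250.13, chromosome 12, 85473890 to 85477273, plus strand), the founding AP-1 gene, had a promoter peak of middle rank by −log10 q in both lists. In proliferating cells it lay from −633 to −45 bp (589 bp wide, fold enrichment 3.10, −log10 q 1.86, percentile 44.9), so it ended before the TSS. The TATA box, at −33 to −28 bp in the sequence above, was outside it. In differentiating cells the peak lay from −493 to 528 bp (1022 bp wide, fold enrichment 3.12, −log10 q 1.81, percentile 45.8) and covered the TATA box, the TSS and coding sequence. The peaks shared 449 bp. The CArG box at −309 to −300 bp was under the peak in both states. The percentiles by −log10 q were close, while those by fold enrichment (26.6 in proliferating and 49.3 in differentiating cells) and the edges of the peaks differed.

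The Fos window held 5 peaks in differentiating and 2 in proliferating cells. Of the differentiating peaks, the one with the highest −log10 q and fold enrichment lay from −7493 to −5907 bp and had no counterpart, with a fold enrichment of 4.00 and −log10 q of 4.56 (percentile 92.8), and it held a further CArG box at −6817 bp. Downstream, a narrow proliferating peak from 12376 to 12645 bp (fold enrichment 4.34, percentile 88.8) and a differentiating peak from 13198 to 14465 bp (2.94, percentile 37.2) lay next to each other without an overlap. Differentiating peaks at −18238 to −17924 bp and at 19685 to 20144 bp (percentiles 81.8 and 81.2) also had no counterpart. For each of these peaks the nearest start site of a protein-coding gene was that of Fos.

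Fosb (ENSMUSG00000003545.3, chromosome 7, 19302696 to 19310051, minus strand), whose product is known to accumulate in a truncated form in stimulated neurons, had no peak in proliferating cells within 20 kb. The nearest one was 78079 bp from its TSS. In differentiating cells a peak from −630 to 431 bp covered the start sites of 6 of its 7 transcripts, with a fold enrichment of 2.96 and −log10 q of 1.37 (percentile 15.7). The lowest −log10 q in that list is 1.01. The peak held the CArG box at −266 bp. A second peak lay from −9783 to −9372 bp (3.21, percentile 44.7).

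Fosl1 (ENSMUSG00000024912.6, chromosome 19, 5447547 to 5455946, plus strand), which encodes Fra-1, had no peak over the gene in either list, and the nearest peaks were 9150 bp and 9783 bp from its TSS. The 4 peaks downstream of it, a pair in each list, overlapped between the lists but lay at other genes. One pair was over the TSS of Ccdc85b (fold enrichment 3.38 and 2.93) and the other in Fibp (3.40 and 3.67). A differentiating peak from −14154 to −13783 bp (4.01, −log10 q 3.61, percentile 87.4) had no counterpart and held the tandem AP-1 sites shown above, and its nearest start site was that of AI837181, not Fosl1.

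Jun had the widest promoter peaks. Jun (ENSMUSG00000052684.4, chromosome 4, 95049034 to 95052222, minus strand), a gene of 1 exon and the main partner of Fos, had a peak from −996 to 884 bp in proliferating cells, 1881 bp wide, with a fold enrichment of 3.95 and −log10 q of 4.17 (percentile 92.8). In differentiating cells the peak reached from −1223 to 1752 bp, 2976 bp wide, with a fold enrichment of 3.08 and −log10 q of 2.83 (percentile 77.9). It ranked 110th of 27965 by width, and the proliferating peak 1049th of 28924. The wider peak contained the narrower one whole, and it reached into the coding sequence. Both also lay over the antisense transcript Junos, and ChIP-seq cannot assign them to a strand. No other peak was found within 20 kb of Jun.

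Junb (ENSMUSG00000052837.6, chromosome 8, 84974484 to 84978718, minus strand), an AP-1 member often antagonistic to Jun, was marked in the proliferating list alone. One peak lay downstream of the TSS over the gene, from 300 to 1518 bp (fold enrichment 2.88, −log10 q 1.44, percentile 14.9), and the other upstream, from −1245 to −921 bp (3.49, 2.44, percentile 70.9). The TSS and the TATA box lay between them, under neither. In differentiating cells the nearest peak was 48055 bp away. Jund (ENSMUSG00000071076.6, chromosome 8, 70698949 to 70700616, plus strand), the Jun gene that is least dependent on stimulation, had peaks in both lists. The proliferating peak lay inside the gene from 397 to 1193 bp, outside the promoter region, with a fold enrichment of 4.17 and −log10 q of 3.85 (percentile 90.9). The differentiating peak reached from −146 to 1783 bp and covered 100% of the single-exon gene, with a fold enrichment of 3.16 and −log10 q of 2.39 (percentile 68.4). Its upstream edge included the Egr site at −75 bp and left out the CRE at −214 bp. An antisense gene (Gm11175) lies under both. A weak differentiating peak from −7549 to −7044 bp (percentile 5.24) held an AP-1 site, and a proliferating peak from 19049 to 19741 bp (percentile 8.49) lay over Gm3336.

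Among the zinc finger genes, Egr1 (ENSMUSG00000038418.7, chromosome 18, 34859823 to 34864984, plus strand) had 1 peak of nearly the same extent in both lists. It reached from −20 to 1578 bp in proliferating cells, with a fold enrichment of 3.46 and −log10 q of 2.25 (percentile 64.7), and from −32 to 1440 bp in differentiating cells, with 2.97 and 1.41 (percentile 18.4). The peaks shared 1461 bp. Counted from the TSS of the shorter transcript, ENSMUST00000165033.1, they reached from −1404 to 194 bp and from −1416 to 56 bp, so they lay mostly upstream of that start site, and 5 CArG boxes between −407 and −74 bp of it were under both. The differentiating list had 1 further peak, 279 bp wide and thus of the shortest width in the list, from 9390 to 9668 bp (3.43, percentile 61.8).

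Egr2 (ENSMUSG00000037868.15, chromosome 10, 67535475 to 67542188, plus strand) had a peak over its start sites in differentiating cells alone. It reached from −1349 to 346 bp of the TSS of ENSMUST00000048289.13 and covered the start sites of 4 of the 7 transcripts, with a fold enrichment of 3.14 and −log10 q of 1.89 (percentile 50.1). Both CArG boxes shown above were under it. Because the gene record begins at a more upstream transcript, this peak is not in the promoter region as defined. In proliferating cells the nearest peak to the start of the gene record lay from −13372 to −12378 bp (fold enrichment 2.78, percentile 1.11). A stronger pair of overlapping peaks lay downstream of Egr2, over the TSS of Ado, with −log10 q of 4.19 (percentile 93.0) in proliferating and 8.59 (percentile 98.7) in differentiating cells. Chromosome 10 held 23.0 and 22.9 peaks per Mb in the lists, against 10.6 and 10.3 over the genome.

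Atf3 (ENSMUSG00000026628.13, chromosome 1, 191170296 to 191218039, minus strand) had 7 peaks in proliferating and 4 in differentiating cells, and the marked start site differed between the lists. In proliferating cells a peak reached from −621 to 450 bp of the TSS of ENSMUST00000027941.13, the more downstream coding transcript, with a fold enrichment of 3.38 and −log10 q of 2.14 (percentile 60.3). In differentiating cells a peak reached from −916 to 340 bp of the TSS of ENSMUST00000195117.1, whose start is that of the gene record, with a fold enrichment of 3.31 and −log10 q of 1.96 (percentile 53.4). Neither peak had a counterpart in the other list. Over all peaks 29.2% (proliferating) and 30.1% (differentiating) had one, and over promoter peaks 75.6% and 67.2%. With 1 library per state, the difference in marked start site was not tested. One distal region was marked in both, from −7389 to −5994 bp (fold enrichment 3.32, percentile 57.8) and from −7359 to −5708 bp (3.11, percentile 69.2), with 1366 shared bases. It lies over the long noncoding RNA D730003I15Rik and holds the AP-1 site at −6410 bp. Of the other proliferating peaks, 3 had the shortest width of the list (263 bp), and 2 had percentiles of 0.408 and 0.512, among the lowest of the list. Chromosome 1 was also dense in peaks, with 19.2 and 18.7 per Mb.

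**Figure D4:**
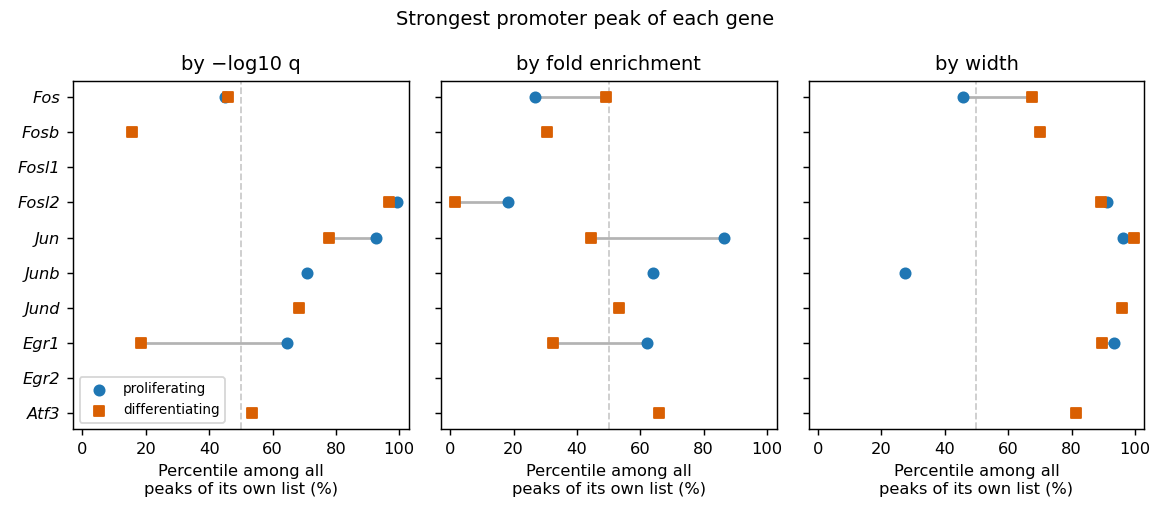
Percentile of the strongest promoter peak of each gene within its own list, by −log10 q, by fold enrichment and by width, for the proliferating (blue circles) and differentiating (orange squares) library. A missing symbol means no peak in the promoter region, grey lines join the values of a gene, and the dashed line is at 50%. By width most symbols lie above 80, whereas by −log10 q they run from 15.7 to 99.4.

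The median width of the promoter peaks of these genes was 1448 bp in proliferating and 1462 bp in differentiating cells, against 861 bp and 910 bp for promoter peaks of all protein-coding genes. In the proliferating list Fos (589 bp) and Junb (325 bp) were narrower than that median, and in the differentiating list each of the 7 was wider than it. Among promoter peaks alone, the percentile by −log10 q of the strongest peak per gene had a median of 42.5 and 24.8, and the order in differentiating cells was Fosl2 (91.5), Jun (51.9), Jund (39.2), Atf3 (24.8), Fos (18.9), Egr1 (5.54) and Fosb (4.49). In proliferating cells it was Fosl2 (99.1), Jun (79.0), Junb (42.5), Egr1 (35.8) and Fos (19.9). With 1 library per state, no neighbours in these orders can be told apart beyond error.

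Between the lists, 10 of the 24 proliferating peaks of these genes overlapped a peak of the differentiating list, against 29.2% of all proliferating peaks, and 10 of 24 the other way round, against 30.1%. In promoter regions the overlap was 4 of 5 and 5 of 7 peaks, close to the 75.6% and 67.2% of all promoter peaks. Outside promoter regions it was 6 of 19 and 5 of 17, against 20.5% and 21.4%. A q of at most 0.05 was met by 20 of 24 peaks in the proliferating and by 23 of 24 in the differentiating list, against 96.1% and 88.5% of all peaks. Of the 24 peaks in each list, 16 and 19 had the start of one of the 10 genes as their nearest protein-coding start. The others were nearest to Ccdc85b, Fibp, AI837181, Ado, Gm3336 or Fam71a, counting 1 TSS per gene.

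Within 500 bp upstream of the start sites of coding transcripts, a CArG box on either strand was present for 4 of the 10 genes (Fos, Fosb, Egr1 and Egr2), against 4.43% of 21853 protein-coding genes. Each of these CArG boxes lay under a peak of at least 1 list. The TATA box was present for 4 genes (Fos, Fosb, Fosl1 and Junb; 34.7% of all genes), the ETS core for 3 (Junb, Egr1 and Egr2; 27.3%), the Egr site for 2 (Fosb and Jund; 7.28%) and the CRE for 1 (Jund; 3.29%). Of the TATA boxes, those of Fos (−33 bp) and Junb (−30 bp) were on the strand of the gene. The matches of Fosl1 (−132 bp of the TSS of the gene record) and Fosb (−339 and −325 bp of the TSS of ENSMUST00000208446.1) were on the opposite strand. The AP-1 site was found upstream of 0 of 10, against 12.2%. These are exact matches of letters, so variants of a site were not counted and a gene without a match may hold one. A match is not a bound site. In the central 300 bp of the peaks, AP-1 sites were found in 1 of 24 proliferating and 2 of 24 differentiating peaks of these genes (Fosl2, then Fosl1 and Atf3), against 4.79% and 4.68% of all peaks. The CArG box was found there in 2 of 24 peaks in each list (Fos and Fosl2, then Fos and Egr2), against 1.5% and 1.29%, and the CRE in 0 of 24, against 0.474% and 0.572%.

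The related genes were counted in the same way. Among all protein-coding genes, 23.7% had a promoter peak in proliferating and 27.7% in differentiating cells, and 17.6% in both lists. Among CpG-rich start sites the shares were 42.4% and 50.2%. Of 30 other immediate early genes, 12 (40%) had one in proliferating and 9 (30%) in differentiating cells, and the 9 were among the 12. The 30% was near the 27.7% of all genes. Those marked in both lists were Ier2, Nr4a3, Klf4, Klf6, Klf10, Dusp6, Arc, Ets2 and Ccn2, and those in the proliferating list alone were Ier5, Dusp4 and Zfp36l1. Nr4a3, an orphan nuclear receptor, had the highest percentiles of this list in both states (98.8 and 98.8), and Dusp6, a phosphatase that limits ERK signalling, had 91.5 and 96.7. Of 12 other leucine zipper genes of the ATF, CREB and BATF groups, 8 had a promoter peak in both lists (Atf1, Atf2, Atf4, Atf5, Atf7, Creb1, Batf2 and Jdp2) and Atf6 and Crem in the differentiating list alone. Of 17 upstream regulators, 9 and 10 had one, among them Srf and Elk4, which encode serum response factor and an ETS partner of it, with percentiles of 24.3 and 56.9 for Srf and 92.4 and 92.9 for Elk4. Mef2a, Mapk9, Map2k2, Spry2 and Spry4 were also marked in both lists. Elk1 and Elk3, of the same list, had a promoter peak in neither. The 10 AP-1 and Egr genes had 3 promoters marked in the differentiating list alone (Fosb, Jund and Atf3), against 10.1% of all protein-coding genes, and 1 in the proliferating list alone (Junb), against 6.13%. Marking in the differentiating list alone was thus the more frequent of these over all genes too, whereas among the 30 other immediate early genes these numbers were 0 and 3. Jund also had a proliferating peak inside the gene and Atf3 one at its other start site. No test of this contrast was run.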

How the data were processed

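Broad H3K27ac peaks of 1 ChIP-seq library per state were used; the 6 ATAC-seq samples were not analysed here. The authors mapped reads to GRCm38/mm10 with Bowtie 2.1.0, removed PCR duplicates, called broad peaks per library with MACS 2.0.10 and filtered blacklisted regions. The deposited lists have no header. Each peak carries 3 deposited values without names, read by MACS output order as fold (enrichment over background), −log10 of p and −log10 of q. The lists reach a −log10 q of 1.00, although the methods state a q-value limit of 0.05. No input library is named in the sources used here. Values were ranked only within their own list. Genes and transcripts were from GENCODE M21, sequence from RefSeq GRCm38.p6. Any shared base counted as an overlap, checked on simulated peaks. Software was scipy 1.17.1, pandas 2.3.3, numpy 2.4.6 and matplotlib 3.10.9 under Python 3.11.15. The members and gene lists were chosen with earlier results of these data known. Alternatives changed the peak threshold, promoter region, window, overlap and ranking measure. Named genes are the 10 members, related genes with a promoter peak in both lists, and the 3 genes outside the lists nearest by Euclidean distance to the member of highest mean promoter percentile. Related genes and markers marked in 1 list alone, and the unmarked Elk1 and Elk3, fall outside this rule and were named after their values were seen. Motif letters, CpG limits, the background of genes no longer than the longest member and the sequence windows were chosen after the peaks had been seen.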

Additional observations from a re-analysis of the deposited data

How the results depend on the processing

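No paired analysis was possible because each ChIP-seq state has 1 library, and the siCtr and siPadi2 samples that share replicate numbers were not analysed here. No result has a test, so a count is said to move where it changes by more than 1.5 times, and a percentile where it leaves the 95% binomial interval of the main one (counting error only). The cause of each shift was not tested unless the setting itself removes peaks. Of 56 alternative counts and medians, 28 moved, as did all 36 alternative percentiles of single genes (ranked by fold enrichment, by width or among promoter peaks alone). The interval is narrow in lists of this length, and even Fosl2 in proliferating cells, from 99.4 to 99.1 among promoter peaks, counted as moved. The 36 therefore say little of how far the ranks hold. Where peaks needed a −log10 q of 5 or more, which leaves few, the genes with a promoter peak were 1 in each list, 1 in both and 1 in either (Fosl2), the peaks within 20 kb 1 and 2, and those with a counterpart 1 and 1. Of the 2 in the differentiating list, 1 lay over the TSS of Ado, downstream of Egr2. When a peak had to reach the median fold enrichment of its list, promoter peaks remained for 3 (proliferating) and 2 genes (differentiating), 0 in both and 5 in either, with 10 and 12 peaks within 20 kb, of which 3 and 3 had a counterpart; Fosl2, first by q, was not among them. With at least 0.5 of the peak in the promoter region, 4 genes remained in differentiating cells and 2 in both. A window of 50 kb held 44 and 38 peaks. A reciprocal overlap of at least 0.5 left 6 and 6 peaks with a counterpart. The median percentile of the strongest promoter peak, 70.9 and 53.4 by −log10 q, was 62.1 and 44.4 by fold enrichment, 91.1 and 89.3 by width, and 42.5 and 24.8 among promoter peaks alone. With q of at most 0.05, a promoter region of 1000 bp on both sides or of 6000 bp upstream, every transcript's TSS, a window of 10 kb or a gap of up to 1000 bp, no count moved by more than 1.5 times.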
